A study of Mus musculus with 6 samples.

Results

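The genes described here encode proteins that switch RAS, or mainly its relative RAP1 in the case of Rasgrp2, off or on. There are 4 GTPase-activating proteins, Nf1, Rasa1, Rasa2 and Rasa3, and 5 guanine nucleotide exchange factors, Sos1, Sos2, Rasgrp2, Rasgrp3 and Rasgrp4. The 9 genes were listed by name, and their values were taken from every probe set that the platform annotation pairs with 1 of them and with no other gene, which gave 22 probe sets. They stand among 18193 genes with such a probe set on the array. The cells were Ba/F3-N, a line derived from mouse bone marrow and transformed with the oncogenic G12D form of NRAS. The 3 treated samples received 1 µM N-arachidonoyl dopamine (NADA), a lipid made of arachidonic acid and dopamine, and the 3 control samples an equal volume of vehicle. Both were harvested after 12 hours, and all 6 samples carried the same introduced NRAS. RNA of each sample was hybridised to 1 Affymetrix Mouse Genome 430 2.0 array. Nothing in the labels says whether the 3 samples of a group came from separate cultures or whether the line is a single clone, so a p-value here reflects only how far these arrays differ among themselves, and that spread may be technical.

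RAS is a small GTPase that signals while it holds GTP. Exchange factors make it release GDP so that GTP can bind, and GTPase-activating proteins speed its hydrolysis of GTP and so return it to the silent state. RAS with a G12D substitution responds poorly to GTPase-activating proteins, while the normal RAS proteins of the same cell remain under their control. SOS proteins are brought to the membrane by the adaptor GRB2 downstream of growth factor and cytokine receptors, whereas RASGRP proteins respond to diacylglycerol or calcium and are found mainly in blood cells.

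Rasa2 and Rasgrp2 had clearly lower transcript levels in NADA-treated cells, at 0.472 and 0.411 times the vehicle level, and Sos2 was 1.39-fold higher. Rasa1 fell and Rasa3 rose slightly, by less than 1.5-fold, and neither Nf1 nor Sos1 was called. Rasgrp3 and Rasgrp4 were too dim on these arrays to be tested. Of the 7 genes tested, 5 were called by limma at an adjusted p under 0.05, 2 higher and 3 lower in NADA. Over all 10520 genes tested, 73.5% were called, 35.9% higher and 37.6% lower, so a called member is the common case here. The sizes set Rasa2 and Rasgrp2 apart more than the calls do, since 6.06% of all genes tested were called and at least 2-fold lower. The groups did not overlap in 6 of the 7 members, beside 76% of all genes. The median log2 fold change was 0.07 over the 7 members and 0.01 over all genes, 0.01 over the 4 activating proteins and 0.07 over the 3 exchange factors tested.

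All fold changes are relative to the bulk of transcripts on the same array. Bacterial poly-A control RNAs, which are normally added to RNA before labelling, averaged 8.49 to 8.87 on the log2 scale in NADA arrays and 8.13 to 8.16 in vehicle arrays. The hybridization controls, another set of control probe sets, differed less, with means of 10.08 in NADA and 9.93 in vehicle arrays, a difference of 0.15. Scaling to the poly-A controls lowers every log2 fold change by 0.58 and brings the median of all genes to -0.57. On that scale 741 of all 10520 genes tested were called higher and 7992 lower, so a lower member is the common case there. No member was called higher, 6 of the 7 were called lower, and Sos2 had a log2 fold change of -0.11 (limma adjusted p = 0.401). The log2 ratio of the 3′ to the 5′ probe set of Actb, a measure of RNA or labelling quality, was 1.01 to 1.11 in NADA arrays and 0.64 to 0.71 in vehicle arrays. All these measures separate the same arrays as the treatment, and their part in the members' differences was not tested. Across genes, the correlation was 0.9972 to 0.9984 within a group and 0.9356 to 0.9390 between NADA and vehicle arrays. Of 13 pro-B and Ba/F3 markers with a probe set, 8 passed the limit for dim values (39.0, the median intensity of all probe sets), of which 6 were called higher and 1 lower, and Cd79a, Ebf1, Kit, Pax5 and Vpreb1 did not. The summed intensity of the 13 was 15731 to 15835 in NADA and 8166 to 8461 in vehicle, a difference carried mostly by 3 genes. They were the cytokine receptor subunit genes Csf2rb2 (mean intensity 3574 in NADA and 703 in vehicle) and Csf2rb (3337 in NADA and 990.0 in vehicle), and Ptprc, which encodes CD45 (6449 in NADA and 4034 in vehicle). Gata2 was lower, at 1763 in NADA and 2041 in vehicle. Of 13 markers of other cells 6 passed (2 called higher, 1 lower), and the 13 summed to 707 to 734 in NADA and 558 to 576 in vehicle. The macrophage marker Adgre1 was among them, with 279.6 ± 8.9 in NADA and 108.9 ± 9.6 in vehicle (intensity, SD, n = 3 each). Of the other called markers Csf1r, also of macrophages, had 69.3 in NADA and 61.3 in vehicle, and the endothelial marker Pecam1 had 79.3 in NADA and 89.9 in vehicle. In bulk RNA, fewer cells of a type and less RNA per cell cannot be told apart, and the part of these markers in the results was not tested.

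**Figure D1:**
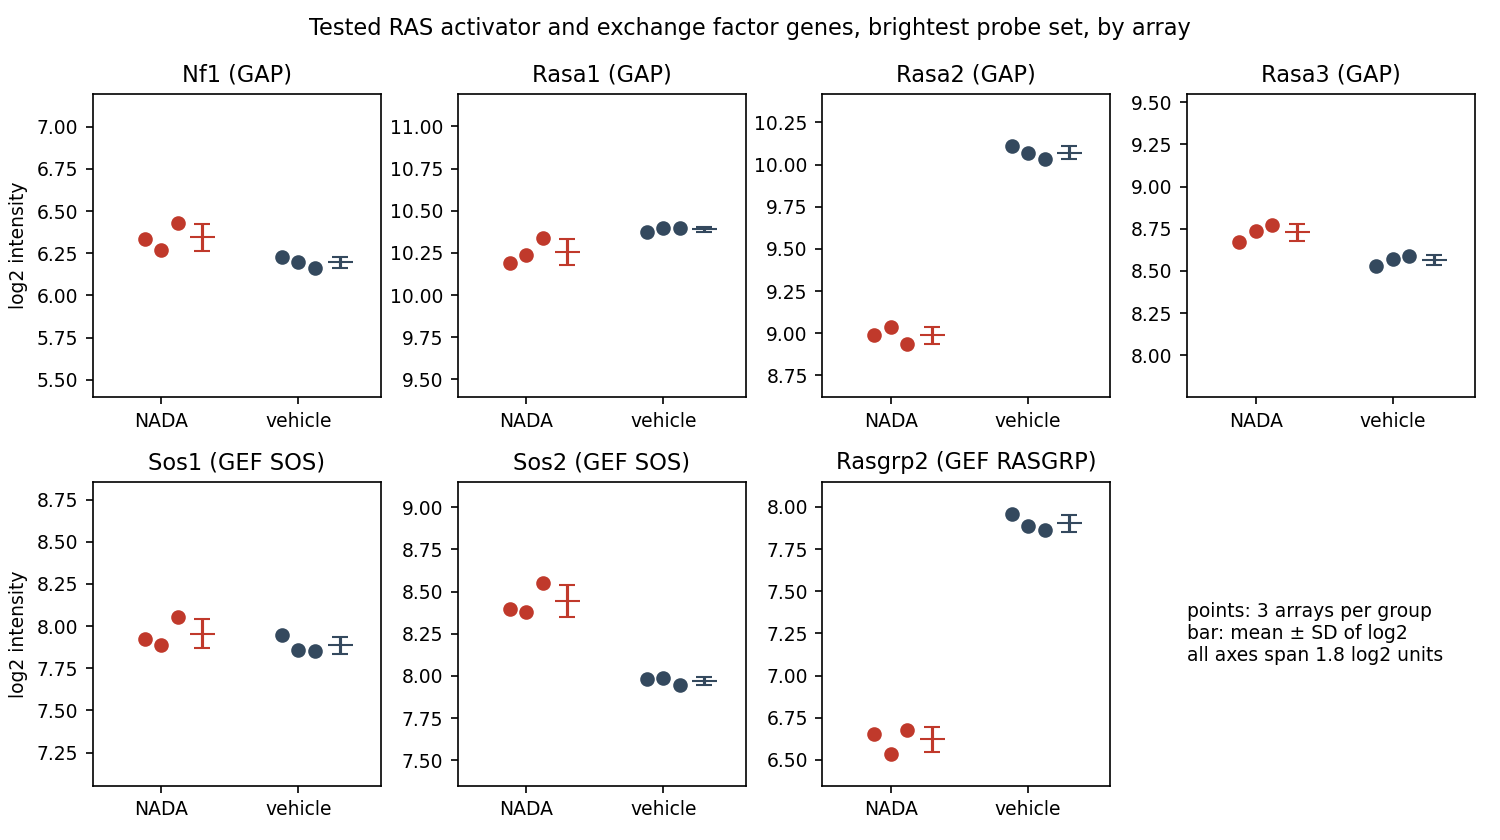
Log2 intensity of the 7 tested genes on each array (points), with the mean and SD of 3 arrays beside them, NADA in red and vehicle in dark blue. All axes span the same range, so the distance between groups can be compared between panels. It is widest for Rasa2 (log2 fold change -1.08) and Rasgrp2 (-1.28).

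Upstream sequences are shown for Rasa2 and Rasgrp2, the members that fell at least 2-fold, and for Sos2, which rose. Each runs from 250 bases before to 50 bases after an annotated start, 5′ to 3′ on the gene's strand (RefSeq, GRCm38.p6), and capitals mark the GC box GGGCGG or its reverse complement, the letters bound by SP and KLF factors. The Rasa2 stretch is chr9:96631454-96631753 on the minus strand and the Sos2 stretch chr12:69681803-69682102 on the minus strand. Rasgrp2 has 2 annotated starts, at chr19:6399625-6399924 and chr19:6401455-6401754, both on the plus strand.
Rasa2: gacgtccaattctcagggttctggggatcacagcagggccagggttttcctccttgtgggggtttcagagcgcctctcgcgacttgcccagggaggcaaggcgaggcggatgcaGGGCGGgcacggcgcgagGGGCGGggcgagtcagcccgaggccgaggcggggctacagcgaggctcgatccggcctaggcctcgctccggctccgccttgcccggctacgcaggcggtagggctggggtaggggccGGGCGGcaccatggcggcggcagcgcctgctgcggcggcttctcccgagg
Rasgrp2, first start: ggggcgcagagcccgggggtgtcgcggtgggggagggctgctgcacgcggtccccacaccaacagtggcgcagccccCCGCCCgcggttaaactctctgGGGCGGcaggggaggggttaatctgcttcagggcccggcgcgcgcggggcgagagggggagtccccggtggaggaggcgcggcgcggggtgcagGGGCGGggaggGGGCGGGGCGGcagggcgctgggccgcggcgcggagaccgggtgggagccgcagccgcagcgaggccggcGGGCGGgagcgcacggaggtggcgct
Rasgrp2, second start: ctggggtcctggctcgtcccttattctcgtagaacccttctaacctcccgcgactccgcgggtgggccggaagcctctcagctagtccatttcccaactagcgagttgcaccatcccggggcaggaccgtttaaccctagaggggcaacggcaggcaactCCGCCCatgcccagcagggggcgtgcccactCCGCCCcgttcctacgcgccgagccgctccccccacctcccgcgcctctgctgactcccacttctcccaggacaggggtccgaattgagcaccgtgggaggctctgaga
Sos2: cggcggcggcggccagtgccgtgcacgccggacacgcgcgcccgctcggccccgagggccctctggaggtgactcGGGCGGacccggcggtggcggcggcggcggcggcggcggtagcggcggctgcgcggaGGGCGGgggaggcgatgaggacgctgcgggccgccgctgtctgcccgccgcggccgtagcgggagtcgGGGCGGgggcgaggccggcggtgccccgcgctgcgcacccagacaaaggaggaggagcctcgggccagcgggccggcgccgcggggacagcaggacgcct

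These stretches hold 3 GC boxes for Rasa2, 6 and 2 for the starts of Rasgrp2 and 3 for Sos2, overlapping matches included. Of the 10 stretches in the table for 8 of the 9 members, 7 hold a GC box, beside 35.7% of all 32851 stretches. The stretches printed above are also rich in G and C, at 72.7% for Rasa2, 80.0% and 66.0% for Rasgrp2 and 82.7% for Sos2. The median of all is 52.7%, and the stretches of Rasgrp3 were not above it, at 48.3% and 52.7%. None of the 10 holds the E-box CACGTG (7.15% of all) or the core of interferon response elements (3.44% of all). The ETS letters GGAAGT stand in 2 of the 10 (23.8% of all), in Nf1 and at 1 start of Rasgrp3, and the FOXO letters TGTTTAC in 1 (3.65% of all), in Rasa1. Both strands were searched, and such a match is a description of the letters only.

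Among the GTPase-activating proteins, Rasa2 had by far the lowest fold change. RASA2, whose gene has 3 GC boxes in the stretch shown, belongs to the GAP1 family, whose members carry C2 domains and a pleckstrin homology domain beside the catalytic domain. Its brightest probe set, 1422785_at, had intensities of 508, 525 and 489 in NADA arrays, against 1104, 1073 and 1046 in vehicle arrays. All NADA values were below all vehicle values, with group means of 508 ± 18.04 and 1074 ± 28.7 (SD, n = 3 each). The log2 fold change was -1.08 ± 0.04 (standard error of the fit; limma adjusted p = 8.13e-13), and 4.83% of all genes tested had a lower one. The other probe set, 1455181_at, read 255, 275.8 and 271 in NADA arrays and 703, 678 and 703 in vehicle arrays. Its log2 fold change was -1.38 ± 0.05 (limma adjusted p = 1.65e-11 over probe sets), so both probe sets of the gene moved the same way. They differed from each other by 0.30 on the log2 scale, close to the median range of 0.25 among the 4858 genes with several passing probe sets. Under all 18 alternative settings tried Rasa2 stayed called and lower, between -1.23 and -1.01 apart from -1.66 after scaling to the poly-A controls.

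Rasa1 encodes p120 RasGAP, which binds phosphorylated receptors and adaptors through its SH2 domains. On its brightest probe set, 1426476_at, it had 1169, 1206 and 1294 in NADA arrays, against 1326, 1350.0 and 1351 in vehicle arrays. The NADA arrays were below every vehicle array, by little: the log2 fold change was -0.14 ± 0.04 (limma adjusted p = 0.00525). The other 2 probe sets gave -0.15 (1426477_at, limma adjusted p = 0.0139 over probe sets) and -0.22 (1426478_at, 0.0370). On 1426478_at the groups overlapped, with 274, 242.7 and 229 in NADA and 334, 265 and 271 in vehicle. After quantile normalization the brightest probe set was at -0.05 and was not called (limma adjusted p = 0.245).

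Rasa3, a GAP1 family member that acts on RAS and on the related GTPase RAP1, rose slightly on the deposited scale. Its only probe set, 1415850_at, had 408, 427 and 438 in NADA arrays, against 369, 380.3 and 385 in vehicle arrays. The groups did not overlap, and the log2 fold change was 0.17 ± 0.05 (limma adjusted p = 0.00360), which turned to -0.41 after scaling to the poly-A controls.

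Nf1 encodes neurofibromin, the activating protein lost in neurofibromatosis type 1 and in some myeloid leukaemias. The one probe set above the dim limit, 1438067_at, had 80.7, 77.0 and 86.1 in NADA arrays, against 74.99, 73.3 and 71.8 in vehicle arrays. The NADA arrays lay just above the vehicle arrays, and the log2 fold change of 0.15 was not called (95% interval -0.0025 to 0.30, limma adjusted p = 0.0712). It was called with a floor of 50 before log2 (limma adjusted p = 0.0336), without an intensity trend (0.0273) and without NADA replicate 2 (0.0478). It was also called with the mean of a gene's passing probe sets (0.0441), which for Nf1 is 1438067_at alone. With the floor, without the trend and with that mean, the log2 fold change stayed at 0.15, and only its standard error differed. Scaling to the poly-A controls turned it to -0.43. The other Nf1 probe sets, 1441523_at and 1452525_a_at, were below the limit, at a mean of 32.6 and 32.3 over all arrays, with overlapping groups.

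**Figure D2:**
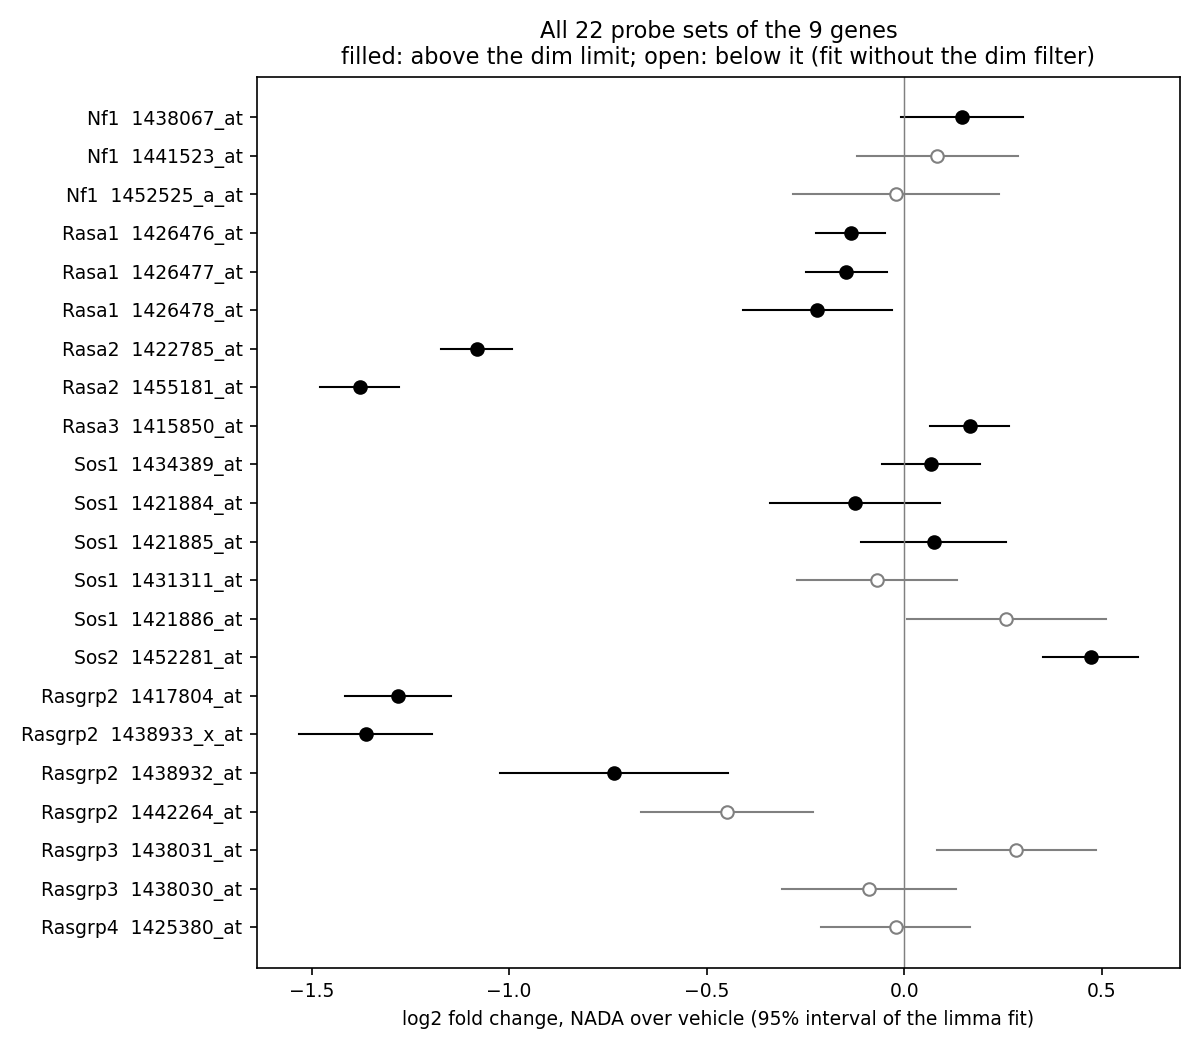
Log2 fold change of NADA over vehicle for all 22 probe sets with the 95% interval of the fit. Filled points are the 14 probe sets above the dim limit, and open points the 8 below it, taken from a fit without that filter. Both Rasa2 probe sets and the 3 filled Rasgrp2 probe sets lie left of 0, and the 3 filled Sos1 intervals include 0.

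Of the 14 member probe sets above the dim limit, 10 were called in the fit over all 22519 such probe sets, 2 higher and 8 lower, beside 70.8% of all probe sets. Probe sets of 1 gene share their target, so these counts are not counts of independent genes.

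Of the SOS exchange factors, Sos2 rose and Sos1 was not called. Sos2, the less studied of the pair, had 338, 332 and 376 on 1452281_at in NADA arrays, against 253, 254 and 247 in vehicle arrays. All NADA values were above all vehicle values, and the log2 fold change was 0.47 ± 0.05 (limma adjusted p = 6.58e-07). This is 1 probe set, and 83.1% of all genes tested had a lower fold change. Sos1, the main RAS exchange factor downstream of many receptors, had 242, 237 and 266 on its brightest probe set, 1434389_at, in NADA arrays, and 246, 233 and 232 in vehicle arrays. The groups overlapped and the log2 fold change of 0.07 was not called (95% interval -0.05 to 0.19, limma adjusted p = 0.291), so a change beyond 0.19 lies outside the interval. Its dimmer probe sets above the limit gave -0.12 (1421884_at) and 0.07 (1421885_at), neither called, with limma adjusted p = 0.281 and 0.451 over probe sets. Probe sets 1431311_at and 1421886_at were below the limit at a mean of 25.2 and 17.8.

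The difference between related genes can be read within each array, where a scaling of the whole array cancels. The log2 ratio of Sos2 to Sos1 was 0.48, 0.49 and 0.50 in NADA arrays and 0.04, 0.13 and 0.09 in vehicle arrays. The groups did not overlap and differed by 0.40. The ratio of Rasa2 to Rasa1 averaged -1.27 ± 0.12 in NADA and -0.32 ± 0.05 in vehicle (SD, n = 3 each), a difference of -0.95. For Rasa2 to Rasa3 the means were 0.26 ± 0.09 in NADA and 1.51 ± 0.07 in vehicle, a difference of -1.25. For each of these 3 pairs the two-sided exact permutation test gave p = 0.1, also after adjustment over the 3, and 0.1 is the smallest value that 3 against 3 arrays allow. The groups of Sos2 and of Rasa2 were already apart gene by gene, and Rasa2 is in both of the last pairs. These tests therefore add no separate support. Only the change of a ratio between groups is meaningful, because probe sets of different genes bind with different strength.

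**Figure D3:**
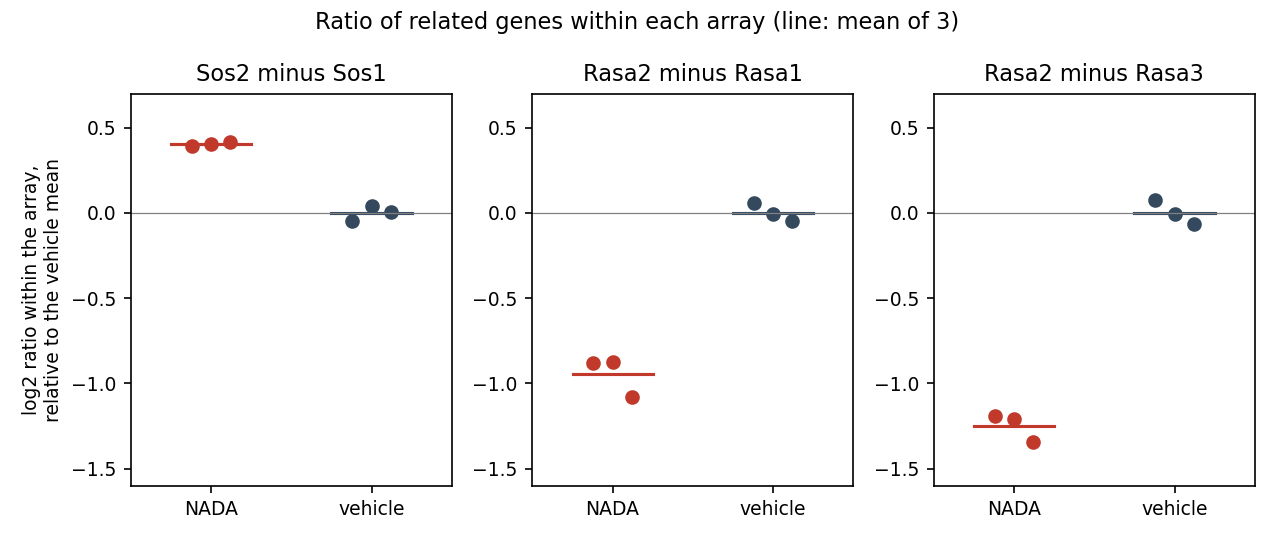
Log2 ratio of 2 related genes within each array, relative to its mean in vehicle (points, 3 arrays per group, line at the mean). The Sos2 to Sos1 ratio was 0.40 higher in NADA, and the ratios of Rasa2 to Rasa1 and to Rasa3 differed by -0.95 and -1.25.

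Among the RASGRP exchange factors, Rasgrp2 fell. RASGRP2, also called CalDAG-GEFI, responds to calcium and acts mainly on RAP1, and it is best known from platelets and neutrophils. Its brightest probe set, 1417804_at, had 100.5, 92.7 and 102 in NADA arrays, against 249, 237 and 233 in vehicle arrays. No NADA value came near a vehicle value, and the log2 fold change was -1.28 ± 0.06 (limma adjusted p = 1.10e-11), with 2.81% of all genes tested lower. Probe set 1438933_x_at read 84.6, 80.2 and 100.01 in NADA and 222, 225 and 231 in vehicle, a log2 fold change of -1.36 ± 0.08. Probe sets of the x type can also bind other transcripts. Probe set 1438932_at gave a smaller difference, -0.73 ± 0.13 (limma adjusted p = 2.35e-04), and its NADA arrays were spread out, at 65.0, 74.5 and 106, against 127, 133 and 138 in vehicle. The fold changes of these 3 probe sets span 0.63 on the log2 scale, against the median of 0.25 for genes with several probe sets. The last one, 1442264_at, had a mean of 38.8, just under the limit of 39.0, with 38.1, 31.1 and 29.5 in NADA and 42.8, 45.3 and 45.9 in vehicle. Rasgrp2 stayed called and lower under all 18 alternatives, between -1.32 and -1.06, and at -1.86 after scaling to the poly-A controls.

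Rasgrp3 and Rasgrp4, diacylglycerol-responsive exchange factors known from B cells and from mast cells, had no probe set above the dim limit. Rasgrp3 read 27.0, 25.1 and 24.1 in NADA arrays and 20.1, 21.6 and 20.8 in vehicle arrays on 1438031_at. Those values do not overlap, and in a fit without the dim filter the log2 fold change was 0.28 ± 0.09 (limma adjusted p = 0.0181 over genes). Its other probe set, 1438030_at, had a mean of 15.5 and a log2 fold change of -0.09 (limma adjusted p = 0.565 over all probe sets), so the 2 did not move alike. Rasgrp4 had 30.6, 30.4 and 33.3 on 1425380_at in NADA arrays and 31.4, 32.9 and 31.4 in vehicle arrays, which overlap (log2 fold change -0.02, limma adjusted p = 0.883 without the filter). No detection calls stand beside the values, so whether these transcripts were present at all cannot be read from them.

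Other genes of the pathway were taken from lists by role. All 8 tested RAS, RAF and MEK genes were called, 4 higher and 4 lower, with a median log2 fold change of 0.00, and the list's other genes were not analysed here. Rras, a RAS relative that acts on cell adhesion, had a log2 fold change of 1.48 ± 0.08, with a mean intensity of 209 in NADA against 75.2 in vehicle, and Mras rose by 0.45. Rras2 (log2 fold change -0.65), Nras (-0.39) and the kinase gene Araf (-0.25) fell, while the MEK gene Map2k1 rose by 0.14. The sources used here do not say whether the Nras probe set binds the introduced NRAS. Of the other RAS activating proteins and exchange factors 8 had a probe set, and only Rasal1 and Rasal3 passed the dim limit, with log2 fold changes of -0.02 and -0.04 that were not called (limma adjusted p = 0.812 and 0.528).

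Among 17 tested adaptors and scaffolds 9 rose and 6 fell (median 0.13). Gab2 and Gab3, docking proteins for GRB2 and PI3K, rose by 1.74 ± 0.05 and 1.82 ± 0.10, and the lipid phosphatase gene Inpp5d by 0.71. Dok2, an adaptor that recruits p120 RasGAP, had the lowest value of the list, -1.69 ± 0.04 (intensity 300.1 ± 6.2 in NADA and 967 ± 23.5 in vehicle, SD, n = 3 each). Spred2, whose product binds neurofibromin at the membrane, fell (-1.03), as did its relative Spred1, named after its values were seen (-0.82). Sh2b3, a brake on cytokine receptor signalling, fell by 1.16. Grb2, which carries SOS proteins to receptors and was also named after its values were seen, rose by 0.16 ± 0.05 (limma adjusted p = 0.00620).

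For the lipid and calcium signals that RASGRP proteins read, 7 of 15 tested genes rose and 3 fell (median 0.08). Dgka, a kinase that removes diacylglycerol, had a log2 fold change of 1.27 ± 0.06, with mean intensities of 295 in NADA and 122.5 in vehicle. Also higher were the protein kinase C gene Prkcd by 0.81 and the phospholipase Plcg1, which makes diacylglycerol, by 0.40. Prkd2 (-0.84), Dgke (-0.65) and Dgkz (-0.12) fell.

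Rasgrp2 and Rasa3 both bear on RAP1, and of 16 tested RAP genes and regulators 3 rose and 8 fell (median -0.13). Sipa1l1, of the family of RAP-specific activating proteins, had a log2 fold change of 1.71 ± 0.05, its mean intensity being 828 in NADA and 252.6 in vehicle. The exchange factor gene Rapgef2 rose by 0.59 and Rap1b by 0.12. Rap2a (-0.82), the RAP activating protein gene Sipa1 (-0.69) and the exchange factor gene Rapgef1 (-0.66) fell.

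Among 13 transcriptional outputs of ERK, the kinase at the end of the RAS cascade, 4 rose and 8 fell (median -0.34). The ETS factor gene Etv5 changed by -2.65, cyclin D1 (Ccnd1) by -1.71 and the ERK phosphatase gene Dusp4 by -1.07, whereas Phlda1 (2.06), Ier3 (0.85) and Egr1 (0.78) rose. After scaling to the poly-A controls the medians of the 5 pathway lists with more than 2 tested genes were -0.58 for RAS, RAF and MEK genes, -0.45 for adaptors, -0.50 for the lipid and calcium genes, -0.71 for RAP genes and -0.91 for ERK outputs. On that scale called genes were mostly lower in all 5, for example 2 higher and 11 lower among adaptors.

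**Figure D4:**
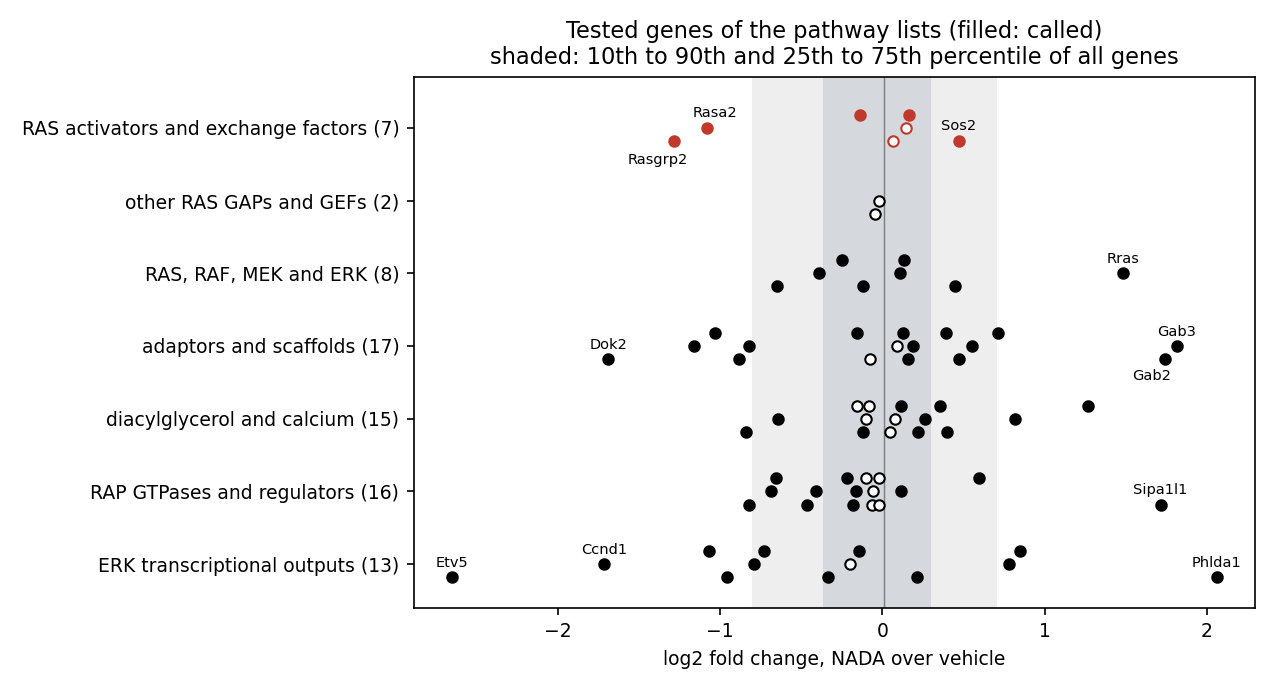
Log2 fold change of NADA over vehicle for the tested genes of each list (filled where called), the members in red at the top. The shading spans the 10th to 90th percentile (-0.80 to 0.70) and the 25th to 75th percentile (-0.36 to 0.29) of all genes tested, and Rasa2 and Rasgrp2 lie left of both.

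Genes with the most similar values over the 6 arrays were sought by the root mean square difference after subtracting each gene's vehicle mean. For Rasgrp2 they were Exosc2 (difference 0.03, log2 fold change -1.28), Ubtd2 (0.04, -1.28) and Nudt5 (0.04, -1.25). For Sos2, the member with the highest fold change, they were Cebpg (0.02, 0.47), Unc50 (0.04, 0.50) and Brd8 (0.04, 0.48). With 6 arrays in 2 groups, this likeness mostly reflects the size of the group difference.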

How the data were processed

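Expression was measured in 6 samples, 3 given NADA and 3 given vehicle, grouped by their titles. The authors deposited 1 linear intensity for each of 45101 probe sets per array, and its log2 was analysed. Per the submitters' processing notes MAS5 and RMA were used, with no version or role given; their medians (37.9 to 39.1) show that arrays were brought to 1 level, which would hide a change shared by most transcripts. For arrays, their number limits the precision. The 64 control probe sets were left out. A probe set was left out as dim where its mean over the arrays was below 39.0, the median of these means, and of 34945 probe sets with 1 gene the brightest passing one stood for each of 10520 genes. The test of NADA against vehicle was that of limma 3.58.1 in R 4.3.3 (lmFit, eBayes with an intensity trend, two-sided), with Benjamini-Hochberg adjustment over all genes, or over all 22519 passing probe sets where probe sets are compared. A gene was called at an adjusted p under 0.05, and only such genes are said to have risen or fallen. The steps were tested on simulated data.

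The members and lists were chosen with earlier results of these data known. The text names all members with every probe set and, from each list, up to 3 genes that rose and 3 that fell with the smallest p. Outside this rule it names Spred1, Grb2, Rasal1, Rasal3 and the pro-B markers below the dim limit, after their values were seen. Alternatives covered normalization, low values, the dim filter, the variance model, the choice of probe sets, the threshold, a block for the replicate number, and the removal of each array in turn. All 9 gene identifiers matched RefSeq (GRCm38.p6), used for names and upstream sequences. Plots were drawn with matplotlib 3.10.9.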

Additional observations from a re-analysis of the deposited data

How the results depend on the processing

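Scaling to the poly-A controls moved the calls to 741 genes higher and 7992 lower, and the members to 0 higher and 6 lower, against 3775 and 3958 genes and 2 and 3 members with the values as deposited. It reversed Nf1 (-0.43), Rasa3 (-0.41), Sos1 (-0.51, and -0.50 on probe set 1421885_at) and Sos2 (-0.11). These shifts follow from the scaling itself, which lowers all log2 fold changes alike. A minimum of 1.5-fold left 3047 genes called (1378 higher, 1669 lower), 2 members, Rasa2 and Rasgrp2 (0 higher), and 5 member probe sets, fewer by construction. Without the dim filter 9 members were tested and 6 called, beside 8233 of all 18193 genes. The added call was Rasgrp3, on a probe set with a mean intensity of 23.1. Leaving out each array in turn gave 7377 to 7749 genes called (3570 to 3839 higher, 3788 to 3917 lower), 5 to 6 members (2 to 3 higher, 3 lower) and 9 to 10 member probe sets. With the replicate block 7755 genes and 5 members were called, and no member's call changed. Deviations of same-numbered samples correlated at 0.16, -0.10 and 0.02, and those of differently numbered samples at -0.21 to 0.18. With 3 arrays per group such values cannot decide whether the shared numbers mark pairs. The main fit used the group only. Rasa2 and Rasgrp2 kept their direction and call under all alternatives run, Sos2 under all but the poly-A scaling and the 1.5-fold minimum. Low signal over background limits Nf1, Rasgrp3 and Rasgrp4. It also bears on the size of the Rasgrp2 change, which was -1.06 with 32 added before log2 and -1.28 without. For Rasa2 these values were -1.04 and -1.08.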
